A study of Homo sapiens with 8 samples.

Results

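Lysosomes are the acidic compartments in which a cell breaks down proteins, glycans, lipids and nucleic acids. The genes described here were chosen by symbol as the main parts of that system, and all 45 were found among the 21059 genes of the expression table. They comprised 17 genes of the vacuolar ATPase (V-ATPase, the proton pump), 19 lysosomal hydrolases, 4 lysosomal membrane proteins, 2 luminal proteins that are not enzymes, and 3 transcription factors of the MiT/TFE family. Their messenger RNA was sequenced in cultures of MDA-MB-157, an established estrogen receptor-negative human breast cancer cell line, so that the results describe 1 line and not breast cancer at large. The cells grew for 48 hours with 5 mM glucose (low glucose, 4 libraries, the control) or 25 mM glucose (high glucose, 4 libraries, the model of hyperglycemia). According to the study's methods, both groups were first held in low-glucose medium and were then cultured without serum. Some experiments of the study added mannitol to the control medium. The labels name none for these cultures, so that glucose and osmolarity cannot be told apart.

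The V-ATPase spends ATP to push protons into the lysosome, which gives the hydrolases the low pH that most of them need. Its V1 sector sits in the cytosol and hydrolyzes ATP, and its V0 sector lies in the membrane and carries the protons. The hydrolases are made in the endoplasmic reticulum, and many of them are tagged with mannose 6-phosphate and carried to the lysosome by receptors for that tag. TFEB, TFE3 and MITF bind E-box sequences (core CACGTG) in the promoters of many of these genes, and their entry into the nucleus is restrained by the nutrient-sensing kinase mTORC1 on the lysosomal surface, which is a control on protein location and not on RNA level.

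The letters of that core were looked up in the promoters, since they are the sequence through which this family is known to act. RefSeq promoter windows (build GRCh38.p14, 250 bases before to 50 bases after each gene's start) were matched by symbol for 31 of the 45 genes. The 14 genes not matched were CTSO, SGSH, ATP6V1A, ATP6V1H, MANBA, CTSB, CTSK, ATP6V1B2, PSAP, HEXA, LAMP2, ASAH1, ATP6V0E1 and ATP6V1C1. CACGTG reads the same on both strands, so each match counts once. It was found in 9 of the 31 genes, against 7.26% of all 35116 windows and 8.77% of the 27305 genes that have them. The longer TCACGTGA, which contains the core, was found in 6 of the 31 genes, against 0.98% of all windows and 1.18% of all genes. The stretches of 6 genes are shown 5′ to 3′ in the gene's own direction, all on the plus strand, with each core in capitals; they run from 20 bases before the first core to at most 20 bases after the last, and no further than 9 bases past the start. MCOLN1 and GAA are shown because they had the largest rise and the largest fall of the 45 genes, ATP6V1G1 and ATP6V0B as subunits of the 2 sectors of the pump, and CTSA and LAMP1 as a protease and a membrane protein.
MCOLN1 (chr19:7522563-7522633): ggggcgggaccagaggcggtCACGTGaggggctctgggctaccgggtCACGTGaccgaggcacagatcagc
GAA (chr17:80101485-80101575): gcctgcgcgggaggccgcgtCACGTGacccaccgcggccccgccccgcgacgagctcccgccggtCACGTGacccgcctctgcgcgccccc
ATP6V1G1 (chr9:114587691-114587736): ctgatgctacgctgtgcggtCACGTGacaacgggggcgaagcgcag
ATP6V0B (chr1:43974883-43974946): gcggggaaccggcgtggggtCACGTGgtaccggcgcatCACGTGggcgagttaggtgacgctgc
CTSA (chr20:45891273-45891335): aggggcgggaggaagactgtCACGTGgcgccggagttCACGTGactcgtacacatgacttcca
LAMP1 (chr13:113297027-113297248): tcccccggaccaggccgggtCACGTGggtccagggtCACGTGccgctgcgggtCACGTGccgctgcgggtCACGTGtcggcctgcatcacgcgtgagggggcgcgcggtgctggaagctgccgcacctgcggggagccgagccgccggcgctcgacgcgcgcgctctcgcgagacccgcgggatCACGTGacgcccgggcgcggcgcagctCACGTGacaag

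The other genes with a core were ATP6V0D1, NEU1 and CTSD. LAMP1 had 6 cores, and MCOLN1, GAA, ATP6V0B and CTSA had 2 each. The longer run GTCACGTGAC, present in 0.353% of all windows, occurred in MCOLN1, GAA and ATP6V1G1. Its core began 14 bases before the start of MCOLN1, 31 and 76 bases before that of GAA, and 58 bases before that of ATP6V1G1. The same letters therefore stood before a gene that rose and a gene that fell at high glucose. Of the 20 genes with a window that rose, 7 had a core, as did 1 of the 7 that fell (GAA) and 1 of the 4 that did not pass the test (CTSD). These matches describe letters in a window and were not tested as binding sites.

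Values are counts per 1000000 reads (CPM) as scaled by the authors, and log2 changes are high minus low glucose on log2(CPM + 1). A gene is called higher or lower at a Benjamini-Hochberg adjusted p under 0.05 over all 21059 genes (limma, 2-sided). The libraries held about 9720000 to 12480000 reads, as estimated from the smallest steps between values,, and 3 reads corresponded to 0.212 to 0.267 CPM. High glucose replicate 1 stood apart from the other libraries along transcript length. Each library's deviation from the mean of the others of its group was correlated with length (Spearman, 11223 genes, described without a p). The correlation was -0.65 for replicate 1, 0.248 to 0.466 in the other 3 high glucose libraries and -0.133 to 0.0562 at low glucose. The mean used for those 3 libraries includes replicate 1, so their values partly mirror it. Among the 45 genes it held the highest of the 4 high glucose values for 33. Results are therefore also given without it where that changes them. As a check of the label, ESR1, the estrogen receptor gene, was at 0 to 0.17 CPM in every library. The mesenchymal genes VIM, FN1 and SPARC were among the abundant transcripts, with low glucose means of 4091, 3612 and 21700 CPM. Their high glucose means were lower, at 2967, 2537 and 12230 CPM. CDH2, also mesenchymal, had 55.2 CPM at low glucose and was called higher. The receptor and epithelial genes ERBB2, KRT8 and KRT18 had low glucose means of 63.6, 131 and 233.5 CPM. PGR, EPCAM, CDH1 and KRT19 had 4.76, 4.5, 0.949 and 0.0182 CPM.

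High glucose went with a broad change across the lysosomal genes, upward for most of the proton pump and in both directions among the hydrolases. Of the 45 genes, 29 were higher, 11 were lower and 5 did not pass the test, with a median log2 change of 0.48. The change was wide in the whole transcriptome too: 22.0% of all genes were higher and 24.8% were lower. Since 43 of the 45 genes had a mean of at least 5 CPM, the nearer background is the 11297 genes of that level, of which 33.6% were higher and 33.3% lower, with a median log2 change of -0.01. The 8 libraries separated fully by group for 29 genes upward and 11 downward, against 32.5% and 32.5% of the genes of that level. A log2 change of at least 1 was reached by 8 genes upward (MCOLN1, ATP6V0C, GLA, ATP6V0B, ATP6V1C1, ATP6V0E1, NEU1, ATP6V1B2) and 2 downward (GAA, CTSO), against 3.28% and 3.60%. CPM is a share of each library, so that more RNA per cell, more cells and less of other transcripts cannot be told apart.

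The classes differed in their balance. The V-ATPase had 14 higher and 2 lower of 17 genes (median log2 change 0.61), the hydrolases 7 higher and 8 lower of 19 (median -0.05), and the membrane proteins 3 higher and 1 lower of 4 (median 0.62). Against the background of 33.6% higher and 33.3% lower, the hydrolase counts are near those of genes at large. Summed over the class, the V-ATPase genes took 1879 to 1922 CPM in the low glucose libraries and 3006 to 3539 CPM in the high glucose libraries, without overlap. The hydrolases took 3197 to 3215 CPM and 3701 to 4137 CPM, a smaller step that was also without overlap, while single enzymes moved in both directions. Without high glucose replicate 1 the class medians were 0.58, -0.10 and 0.60. Genes of a class are not replicates, and no test was run between classes.

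**Figure D1:**
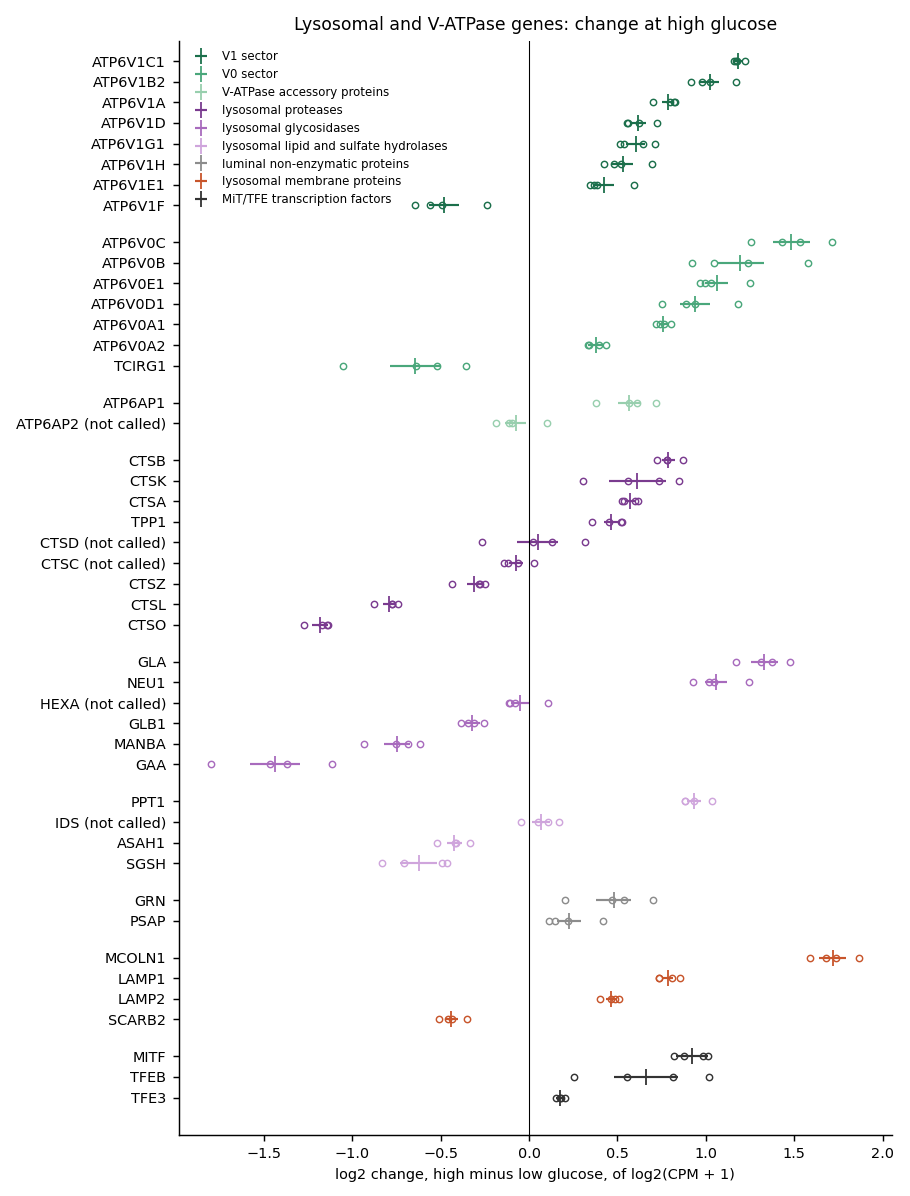
Log2 change of each of the 45 genes, grouped by class; the bar is the fitted change with its standard error, and each open circle is 1 high glucose library against the mean of the 4 low glucose libraries. In the V-ATPase rows 14 of 17 genes lie to the right of 0 and pass the test, whereas the hydrolase rows run from -1.44 (GAA) to 1.33 (GLA).

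In the V1 sector, 7 of 8 subunit genes were higher at high glucose, with a median log2 change of 0.61. ATP6V1C1, whose C subunit clasps the stator and is released when the pump disassembles, had the smallest adjusted p of the 45 genes. Its CPM was 166.8, 168.2, 164.4 and 161.5 at low glucose and 373.7, 374.9, 370.8 and 386.2 at high glucose. The 4 values of each group lay close together and far from the other group, a 2.28-fold difference in means (log2 change 1.18, SE 0.02, adjusted p = 3.03e-07). ATP6V1A and ATP6V1B2 encode the A and B subunits that form the ATP-hydrolyzing ring. ATP6V1A had 109.4, 104.4, 103.1 and 107.6 CPM at low glucose and 185.1, 188.9, 172.8 and 188.0 CPM at high glucose (log2 change 0.79, SE 0.03, adjusted p = 4.68e-06). ATP6V1B2 had 46.93, 47.95, 49.86 and 49.39 CPM against 110.5, 99.64, 92.46 and 96.43 CPM (log2 change 1.02, SE 0.05, adjusted p = 1.02e-05). Both ring subunits were higher in every high glucose library than in any low glucose library, with high glucose replicate 1 the highest for ATP6V1B2 but not for ATP6V1A.

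The stalk subunits rose by less. ATP6V1D, of the central rotor, went from a mean of 58.4 ± 2.08 to 89.97 ± 5.1 CPM (SD, n = 4 per group). The peripheral stalk genes ATP6V1G1 and ATP6V1E1 had log2 changes of 0.60 and 0.42, and ATP6V1H, which joins the sectors and regulates the ATPase, had 0.53 (adjusted p of these 4 genes from 3.91e-05 to 1.02e-03). Of ATP6V1E1, 18.3% of the 31-base words of its transcript also occur in other genes, its pseudogenes among them, so its counts are uncertain to that extent. ATP6V1F, a small rotor subunit, was the exception: it fell by 0.48 on the log2 scale, from 118 ± 4.04 to 84.3 ± 10.8 CPM (adjusted p = 2.84e-03). Some 23.2% of its exon sequence overlaps KCP on the other strand, and how strand was used in counting was not established. KCP itself was near the floor, with 1.27 and 0.826 CPM in the low and high glucose groups. Per kilobase of transcript, ATP6V1F had the highest level of the 8 V1 genes at low glucose (174 CPM per kb), and at high glucose it stood at 124 beside 128 for ATP6V1E1.

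In the V0 sector, 6 of 7 genes were higher, with a median log2 change of 0.94. ATP6V0C encodes the main proteolipid of the proton-carrying ring. It had 37.26, 35.86, 40.86 and 42.90 CPM at low glucose and 130.4, 107.1, 115.0 and 94.7 CPM at high glucose, a 2.85-fold difference in means and the second largest rise of the 45 genes (log2 change 1.48, SE 0.10, adjusted p = 3.31e-05). The groups were far apart, but 96.1% of the 31-base words of ATP6V0C also occur in 2 overlapping gene models on the same strand and in a pseudogene, so reads cannot be assigned to it alone. ATP6V0B, the other proteolipid member here, had a log2 change of 1.19 with a wide spread at high glucose, 208.2 to 328.5 CPM, against 107.8 to 111.2 CPM at low glucose (adjusted p = 2.99e-04).

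ATP6V0E1, a small membrane subunit, had the highest level of the V0 genes per kilobase in both groups (257 and 539 CPM per kb). Its CPM was 373.7, 368.1, 362.1 and 356.8 at low glucose and 870.0, 745.2, 729.9 and 715.0 at high glucose (log2 change 1.06, SE 0.06, adjusted p = 1.58e-05). The high glucose libraries lay within a narrow range except for replicate 1. ATP6V0D1, which couples the rotor to the ring, had a log2 change of 0.94 (from 107 ± 4.06 to 207 ± 26.4 CPM, adjusted p = 1.24e-04).

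**Figure D2:**
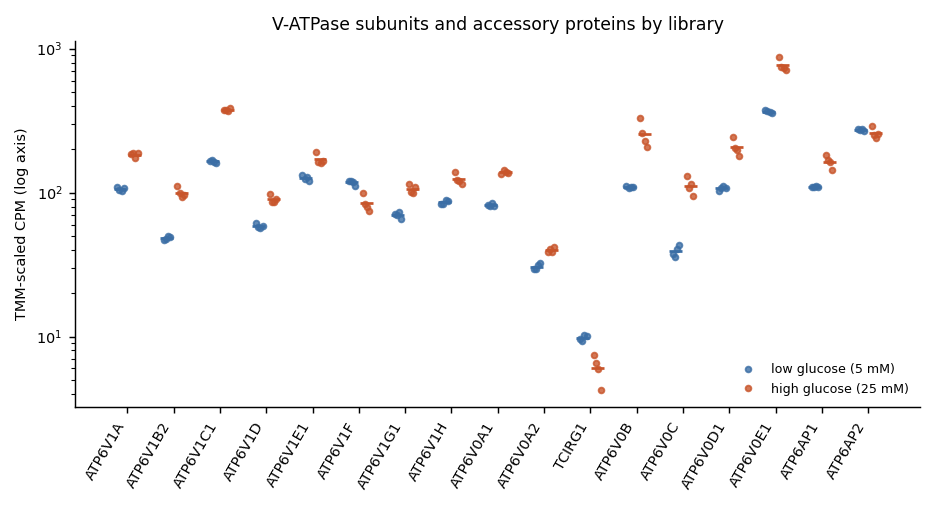
CPM of the 17 V-ATPase genes in each library on a log axis; points are libraries, and horizontal lines are the means of the 4 libraries of a group. ATP6V1F and TCIRG1 are the genes with the high glucose points below the low glucose points, and ATP6AP2 the gene whose groups overlap.

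The large a subunit of V0 has 4 alternative genes, which direct the pump to different membranes, and these did not move together. ATP6V0A1 had 81.35, 80.83, 84.18 and 80.63 CPM at low glucose and 135.2, 143.5, 139.4 and 137.2 CPM at high glucose (log2 change 0.76, SE 0.02, adjusted p = 1.61e-06). This is the tightest rise in V0. ATP6V0A2 rose from 30.6 ± 1.46 to 40.0 ± 1.36 CPM (log2 change 0.38, adjusted p = 2.53e-04). TCIRG1, the a3 isoform known for acid secretion by osteoclasts, fell from 9.82 ± 0.467 to 6.03 ± 1.35 CPM (log2 change -0.64, adjusted p = 8.91e-03). ATP6V0A4, known from kidney and not among the 45 genes, had 0.429 and 0.659 CPM in the low and high glucose groups and did not pass the test. Per kilobase, ATP6V0A1 took 70.0% ± 0.816 of the summed level of the 4 genes at low glucose and 79.7% ± 0.941 at high glucose, and TCIRG1 took 12.9% ± 0.373 and 5.32% ± 1.16 (SD, n = 4 libraries). The shares of these genes did not overlap between the groups.

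**Figure D3:**
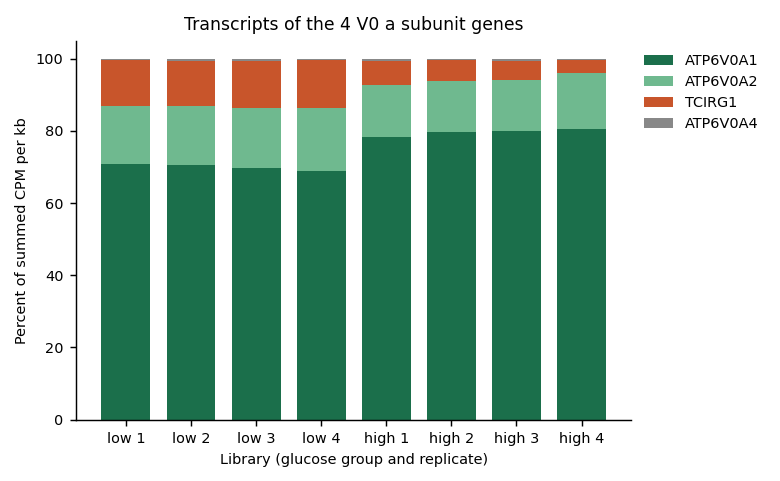
Percent of the summed CPM per kilobase of the 4 genes for the V0 a subunit, 1 stacked bar per library. ATP6V0A1 is the largest part of every bar, and the TCIRG1 part is narrower in each of the 4 high glucose libraries (3.81% to 6.63%) than in the 4 low glucose libraries (12.5% to 13.3%).

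The accessory proteins ATP6AP1 and ATP6AP2 help to assemble and traffic the pump. ATP6AP1 had 109.6, 109.8, 111.1 and 109.6 CPM at low glucose and 181.3, 168.8, 163.3 and 143.3 CPM at high glucose (log2 change 0.57, SE 0.07, adjusted p = 3.80e-04). ATP6AP2, also called the prorenin receptor, had 276.7, 270.6, 275.8 and 267.7 CPM against 292.5, 251.7, 239.4 and 254.9 CPM (log2 change -0.07, SE 0.06, adjusted p = 0.358). Only high glucose replicate 1 was above the low glucose range, and without it ATP6AP2 was called lower (log2 change -0.13, adjusted p = 6.37e-03).

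The 9 lysosomal proteases divided into 4 higher, 3 lower and 2 that did not pass the test. CTSO, a cysteine protease, had the largest change of the class. Its CPM was 59.26, 53.00, 55.98 and 55.21 at low glucose and 24.28, 22.48, 24.74 and 24.80 at high glucose, 2.32-fold higher at low glucose (log2 change -1.18, SE 0.04, adjusted p = 2.78e-06). Cathepsin L (CTSL), a broad endopeptidase, had 300.8, 292.3, 283.6 and 291.6 CPM against 174.2, 158.7, 170.4 and 170.4 CPM (log2 change -0.79, SE 0.03, adjusted p = 4.21e-06). The spread within each group was small for both genes. Cathepsin B (CTSB), its relative of the same papain family, moved the other way, with 358.5, 344.5, 346.6 and 335.0 CPM at low glucose and 632.3, 594.1, 595.3 and 572.8 CPM at high glucose (log2 change 0.79, SE 0.04, adjusted p = 5.51e-06). At low glucose CTSB and CTSL were at 93 and 177 CPM per kb, and at high glucose CTSB was the higher of the pair, at 160 against 102.

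Among the other proteases, CTSA, the carboxypeptidase that also protects beta-galactosidase and neuraminidase, had a log2 change of 0.57 (adjusted p = 8.18e-06). It overlaps PLTP and another gene on the other strand over 24.1% of its exon sequence, and PLTP fell from 6.14 to 1.77 CPM. TPP1, a tripeptidyl peptidase, rose by 0.46 on the log2 scale, with 18.4% of its words shared with another gene model. CTSK, the collagen-degrading cathepsin of osteoclasts, was called higher at a low level, 1.57 ± 0.412 against 2.93 ± 0.627 CPM, or 13 to 25 against 26 to 46 estimated reads (adjusted p = 0.0167). CTSZ fell from 218 ± 5.3 to 176 ± 10.1 CPM (log2 change -0.31, adjusted p = 9.82e-04). CTSC, which activates serine proteases, had 111 ± 2.66 and 106 ± 5.71 CPM (log2 change -0.07, adjusted p = 0.178), and it was called lower without high glucose replicate 1 (-0.11, adjusted p = 0.0172). The aspartic protease CTSD had 282 ± 8.55 and 295 ± 48.7 CPM (log2 change 0.05, SE 0.11, adjusted p = 0.780), with high glucose values from 234.2 to 351.2 CPM on both sides of the low glucose range, and 61.6% of its words are shared with an overlapping gene model.

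The 6 glycosidases held the largest fall and the third largest rise of the 45 genes. GAA, acid alpha-glucosidase, releases glucose from glycogen in the lysosome. Its CPM was 196.5, 218.1, 225.1 and 240.7 at low glucose and 100.7, 84.49, 78.77 and 62.48 at high glucose (log2 change -1.44, SE 0.14, adjusted p = 1.69e-04). It was 2.70-fold higher at low glucose in the means, and its values varied more within the groups than those of CTSL or CTSO. GLA, alpha-galactosidase A, which acts on globotriaosylceramide, went the other way with 43.26, 37.10, 37.71 and 39.19 CPM against 110.7, 103.1, 89.65 and 98.74 CPM, a 2.56-fold rise (log2 change 1.33, SE 0.07, adjusted p = 1.21e-05). NEU1, the lysosomal neuraminidase, had 264.9, 265.5, 267.4 and 260.3 CPM against 626.6, 547.9, 537.2 and 503.6 CPM (log2 change 1.06, SE 0.06, adjusted p = 1.60e-05). No high glucose value of GLA or NEU1 came near the low glucose range.

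GLB1, beta-galactosidase, which works in a complex with NEU1 and CTSA, fell by 0.32 on the log2 scale (116 ± 6.03 to 92.5 ± 3.63 CPM, adjusted p = 8.37e-04), so the 3 partners of that complex did not move together. MANBA, beta-mannosidase, fell from 29.4 ± 1.67 to 17.2 ± 1.68 CPM (log2 change -0.75, adjusted p = 1.84e-04). HEXA, the alpha chain of beta-hexosaminidase, had 184 ± 4.14 and 178 ± 13.6 CPM (log2 change -0.05, adjusted p = 0.487). High glucose replicate 1 was its one value above the low glucose range, and without that library HEXA was called lower (-0.10, adjusted p = 8.15e-03). Its reads are partly uncertain, since 18.0% of its words occur in other genes.

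Of the 4 enzymes acting on lipids, acyl chains and sulfate groups, 1 was higher and 2 were lower. PPT1, which removes palmitate from proteins, had 234.4, 229.7, 224.3 and 217.9 CPM at low glucose and 465.3, 417.4, 418.9 and 433.8 CPM at high glucose (log2 change 0.93, SE 0.04, adjusted p = 4.84e-06). ASAH1, acid ceramidase, had 93.35, 89.45, 90.12 and 86.32 CPM against 71.08, 62.18, 67.30 and 66.83 CPM (log2 change -0.42, SE 0.04, adjusted p = 2.05e-04). The values of each group formed a tight cluster for PPT1 and ASAH1. SGSH, a sulfamidase of heparan sulfate breakdown, had 60.60, 64.43, 69.99 and 77.06 CPM against 47.79, 48.78, 41.16 and 37.68 CPM (log2 change -0.62, SE 0.11, adjusted p = 2.39e-03). IDS, the sulfatase that acts on iduronate, had 63.5 ± 2.47 and 66.8 ± 4.31 CPM and overlapping groups (log2 change 0.07, adjusted p = 0.316). The transcript of IDS shares 93.4% of its words with an overlapping gene model and its pseudogene.

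**Figure D4:**
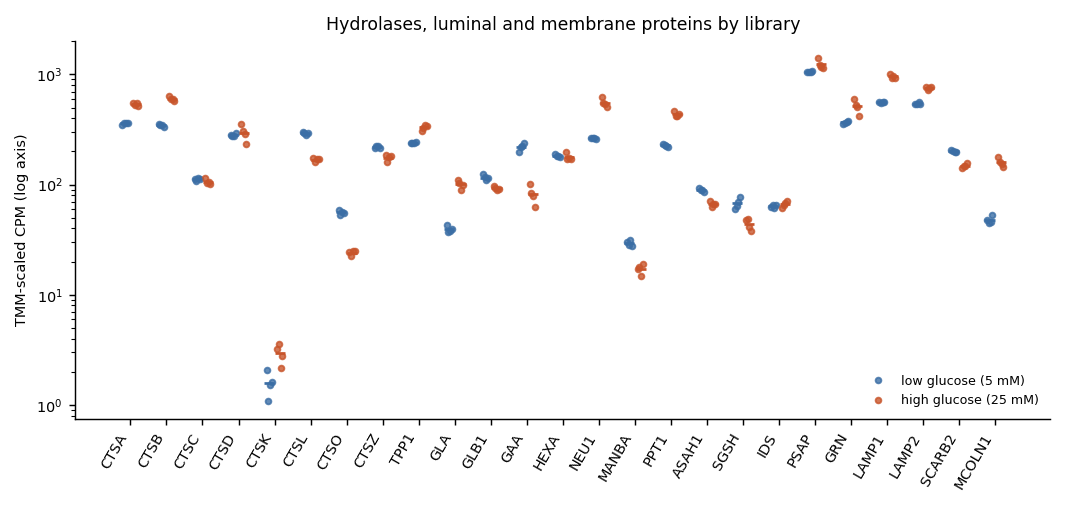
CPM of the 19 hydrolases, the luminal proteins PSAP and GRN and the 4 membrane proteins in each library on a log axis, with points for libraries and lines for group means. CTSO, CTSL, GAA and MANBA lie lower at high glucose, whereas CTSB, GLA, NEU1 and PPT1 lie higher.

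Both luminal proteins that are not enzymes were called higher. PSAP, the precursor of the saposins that present lipids to hydrolases, had the highest CPM per kb of the 45 genes at low glucose (384). Its CPM was 1048, 1050, 1053 and 1070 at low glucose and 1413, 1231, 1168 and 1141 at high glucose, a change of 0.23 on the log2 scale (SE 0.07, adjusted p = 0.0320). The rise was small beside the spread of the high glucose libraries, and the call was lost when any low glucose library or high glucose replicate 2 was left out (adjusted p from 0.0654 to 0.0748). GRN, progranulin, a partner of PSAP, had 355.0, 363.2, 370.5 and 377.7 CPM against 596.5, 531.7, 508.1 and 422.2 CPM (log2 change 0.48, SE 0.10, adjusted p = 5.87e-03).

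MCOLN1, the lysosomal cation channel mucolipin 1, which releases calcium from the lysosome, had the largest rise of the 45 genes. Its CPM was 47.76, 44.39, 45.27 and 53.17 at low glucose and 176.2, 160.9, 154.6 and 144.9 at high glucose, 3.34-fold in the means (log2 change 1.72, SE 0.08, adjusted p = 4.84e-06). LAMP1 and LAMP2 are the heavily glycosylated proteins that line the lysosomal membrane. LAMP1 had 557.6, 553.3, 565.7 and 558.2 CPM against 1010, 932.2, 977.5 and 930.5 CPM (log2 change 0.78, SE 0.03, adjusted p = 4.40e-06). LAMP2 had 538.8, 543.4, 559.9 and 536.1 CPM against 774.3, 719.8, 750.2 and 761.9 CPM (log2 change 0.46, SE 0.03, adjusted p = 2.50e-05). The groups were far apart for all 3 genes. SCARB2, the membrane receptor that carries beta-glucocerebrosidase to the lysosome, fell from 201 ± 4.88 to 148 ± 6.81 CPM (log2 change -0.44, adjusted p = 6.91e-05).

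The 3 transcription factors were each called higher, from very different levels. TFE3 was the most abundant, at 36.2 CPM per kb at low glucose, against 1.92 for TFEB and 0.452 for MITF. Its CPM was 124.1, 118.4, 116.7 and 117.9 at low glucose and 137.4, 132.5, 135.3 and 134.6 at high glucose, a small step without overlap (log2 change 0.18, SE 0.02, adjusted p = 6.87e-04). With quantile normalization the TFE3 change was 0.05 and no longer called (adjusted p = 0.154). MITF had 1.750, 2.236, 2.293 and 2.404 CPM against 4.588, 5.261, 5.361 and 4.799 CPM, from 21 to 33 and from 54 to 66 estimated reads (log2 change 0.92, SE 0.09, adjusted p = 1.55e-04). TFEB had 5.251, 4.886, 4.247 and 3.569 CPM against 10.02, 7.015, 8.578 and 5.510 CPM (log2 change 0.66, SE 0.18, adjusted p = 0.0212). The lowest high glucose value of TFEB lay just above the highest low glucose value, and its call was lost on leaving out low glucose replicate 3, low glucose replicate 4 or high glucose replicate 3 (adjusted p from 0.0535 to 0.0574). RNA levels do not show where these proteins were in the cell.

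A wider set of 89 lysosomal genes, all in the table, was listed by function, with earlier results of these data known. It had 26 higher, 34 lower and 29 that did not pass the test, with a median log2 change of -0.06. Beside the 33.6% and 33.3% of genes of at least 5 CPM that were higher and lower, these counts are near the background. The counts of each list are to be read against the same shares, except those of the V-ATPase isoforms. Most of these isoforms were under 5 CPM, so their background is all genes, of which 22.0% were higher and 24.8% lower. Among the 8 isoforms of V-ATPase subunits that are not among the 45 genes, 0 were higher and 4 were lower (ATP6V0E2, ATP6V1E2, ATP6V1B1 and ATP6V1G3), whereas the limma test called 14 of 17 V-ATPase genes higher in the first set. At an unadjusted p under 0.05 the count of higher isoforms was also 0. Only ATP6V0E2 (10.0 to 5.71 CPM) and ATP6V1E2 (11.4 to 7.37 CPM) had a mean above 5 CPM. All 17 V-ATPase genes of the first set had a mean of at least 5 CPM, so these counts compare genes of unlike level. For ATP6V1B1, 87.8% of the 31-base words also occur in VAX2, so reads cannot be assigned to it alone. ATP6V1G3 passed the limma test narrowly (adjusted p = 0.0492), and its groups overlapped. Its control libraries held 8 to 12 estimated reads, against 2 to 10 in the high glucose group. Of the 8 assembly factors, VMA21, TMEM199 and NCOA7 were higher and ROGDI was lower (log2 change -0.76).

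By count of genes, the wider hydrolases leaned down. Of 25 further hydrolases and related genes, 17 were lower and 5 were higher, with a median log2 change of -0.63. Their summed level overlapped between the groups, at 2163 to 2216 CPM at low glucose and 2150 to 2309 CPM at high glucose. The 25 include the activator GM2A, the carrier NPC2 and the acetyltransferase HGSNAT, which are not hydrolases. The lower genes with the smallest adjusted p were LIPA, lysosomal acid lipase (238 ± 5.97 to 136 ± 3.12 CPM, adjusted p = 1.60e-06), and GM2A, the GM2 activator (103 ± 3.06 to 65.8 ± 1.2 CPM, adjusted p = 3.52e-06). Among the higher genes were PLA2G15, a lysosomal phospholipase (16.1 ± 1.01 to 27.7 ± 4.33 CPM, log2 change 0.74), GALNS, a sulfatase, and NPC2, which carries cholesterol. Of 8 further proteases, CTSH (log2 change -1.15), LGMN, CTSF and CTSS were lower and CTSV was higher (0.24). With the first set and both further lists together, 29 of 52 hydrolases and related genes were lower and 13 were higher, with a median log2 change of -0.35. Summed over these 52 genes, the level was nevertheless higher at high glucose without overlap, at 6368 to 7039 CPM against 5931 to 5994 CPM.

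Other membrane proteins were mixed, with counts near the background of 33.6% higher and 33.3% lower. The sorting list held only 6 genes. Of 20 further membrane proteins, 8 were higher, with the smallest adjusted p in OSTM1 and CTNS, the cystine exporter (48.7 ± 2.71 to 87.2 ± 5.03 CPM), and 5 were lower, with the smallest adjusted p in SIDT2 (log2 change -1.43, adjusted p = 1.22e-06), with TMEM106B, TMEM175 and TPCN2 among the others. In the mannose 6-phosphate route, 3 of 6 genes were higher and 0 were lower by limma (1 was lower at an unadjusted p under 0.05). The higher genes were the receptors M6PR (105 ± 2.31 to 186 ± 3.49 CPM, adjusted p = 9.90e-07) and IGF2R, and the sorting receptor SORT1. A list of 14 genes covered the control of TFEB by nutrients. LAMTOR3, FNIP2, RRAGC, RRAGD, FNIP1 and FLCN were higher and LAMTOR2, LAMTOR1 and RRAGA were lower. RRAGC and FLCN share 43.5% and 35.6% of their 31-base words with other genes, so their counts are uncertain to that extent. The list also held TFEC, a relative of TFEB outside that route, which stood at 0 to 0.085 CPM. FNIP2 rose from 26.2 ± 2.02 to 55.0 ± 5.07 CPM and LAMTOR3 from 42.7 ± 1.23 to 89.3 ± 5.57 CPM, whereas LAMTOR2, of the same Ragulator complex, fell from 35.7 ± 1.24 to 22.8 ± 4.26 CPM.

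**Figure D5:**
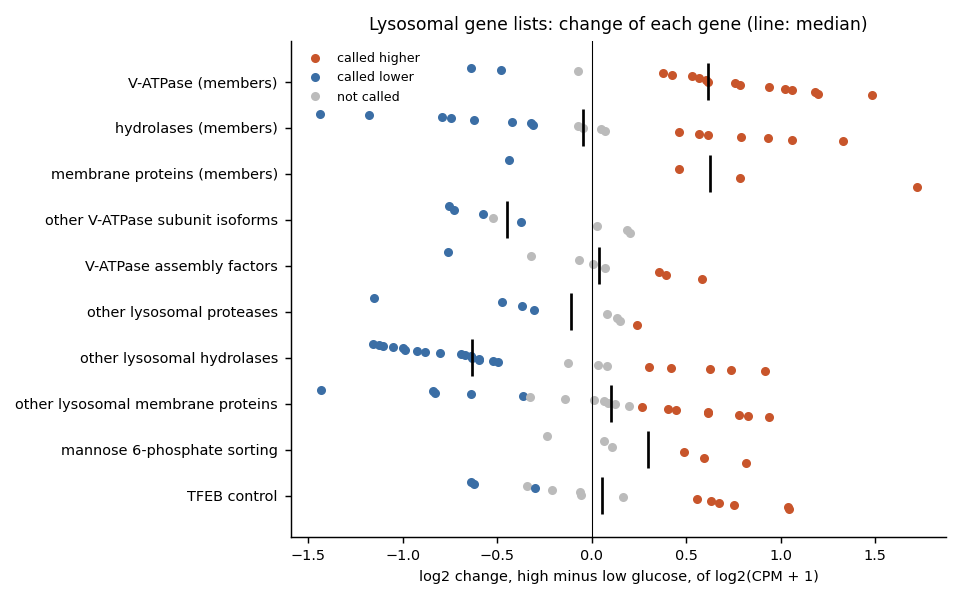
Log2 change of each gene in 3 classes of the 45 genes (top rows) and in the wider lists, with the color giving the call and the black line the median of the row. The median of the V-ATPase genes is 0.61 and that of the other V-ATPase isoforms -0.45. Of those isoforms, only ATP6V0E2 and ATP6V1E2 have a mean above 5 CPM. The median of the other lysosomal hydrolases is -0.63.

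Lysosomal genes are abundant in macrophages, osteoclasts and melanocytes, so markers of these cells were read beside them. Of 8 myeloid markers, 4 were measured. PTPRC was at 0 to 0.178 CPM and LYZ at 0 to 0.0706 CPM, both under the value of 3 reads in every library. CD14 rose from 1.25 ± 0.337 to 4.24 ± 1.32 CPM (adjusted p = 2.52e-03), and CSF1R had 4.23 and 5.62 CPM (adjusted p = 0.0783). The summed level of the 4 myeloid markers ran from 4.89 to 6.46 CPM in the low glucose libraries and from 8.44 to 11.9 CPM in the others. Of 4 osteoclast markers, 2 were measured: ACP5 fell from 26 ± 2.23 to 13.8 ± 2.96 CPM and CALCR rose from 0.792 to 1.41 CPM. Of 5 melanocyte markers, read beside MITF, 4 were in the table, with sums of 4.74 to 6.62 CPM in the low glucose libraries and 2.31 to 2.54 CPM in the others. TYRP1 fell from 4.54 to 1.41 CPM while MITF rose. The part of these markers in the lysosomal results was not tested.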

How the data were processed

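For the 8 libraries, the values as deposited were counts per 1000000 reads (CPM) that the authors had scaled by TMM with edgeR, a tool named in the labels' processing notes. Those notes name build hg38, while the study's methods, written for tumors in a section that also covers cell lines, name hg19. The counting tool and its use of strand are not given in the sources used here. Of values below 200 reads, 73.5% to 74.6% were whole multiples of 1 read (within 0.02 of a step), so no count test was run. Depths and the floor of 3 reads cover counting error only.

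Pseudoautosomal Y copies (18 lines) were left out, and 21059 genes were fitted without a filter, 856 of them at 0 everywhere. Values were tested as log2(CPM + 1), a scale that understates changes of low genes, with limma 3.58.1 (R 4.3.3, eBayes with a trend, 2-sided), 4 libraries against 4. SE is that of the fit. The fit was also tested on simulated data with the same small noise, beside counting noise, in every library. That simulation did not imitate the way high glucose replicate 1 stood apart. Transcript lengths and overlaps came from GENCODE 44 (GRCh37) and promoters from RefSeq.

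The 45 genes and all lists were chosen with earlier results of these data known. Values in every library are given for the transcription factors and, in each class, for the 3 genes with the smallest adjusted p and the one with the largest change. From each wider list, at most the 3 called genes with the smallest adjusted p and those called against most of the list were to be named; some of these are not reported here, and other names there were added after their values were seen. Whether replicates were separate experiments is not stated, so p-values measure the spread between these libraries, which may be technical.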

Additional observations from a re-analysis of the deposited data

Results flagged for a closer look

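In each group of 4 libraries, the highest and the lowest value of every gene were compared with the rest of the group. The gap to the nearest library, divided by the range of the group, passed Dixon's 95% critical value in 4 of 90 groups, where chance gives about 4.5. High glucose replicate 1 had 191.2 CPM for ATP6V1E1, against 161 to 165.8 CPM in the other 3 libraries (ratio 0.840), and 197.9 CPM for HEXA, against 169.4 to 173.6 CPM (ratio 0.854). Low glucose replicate 4 had 111.7 CPM for ATP6V1F, against 118.7 to 120.1 CPM (ratio 0.839), and 295.1 CPM for CTSD, against 277.2 to 280.1 CPM (ratio 0.838). Among the 4 high glucose libraries, replicate 1 held the highest value for 33 of the 45 genes and replicate 4 the lowest for 21.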

How the results depend on the processing

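Of the 45 genes, 37 kept their direction and their side of the threshold under each of the 16 alternatives in which they were fitted (8 with 1 library left out, and 8 others); CTSK and MITF were not fitted with the minimum mean of 5 CPM. The count of higher genes ran from 27 to 29 and that of lower genes from 11 to 14; in the wider set the counts ran from 25 to 31 and from 30 to 38. The V-ATPase median moved from 0.61 to 0.52 with quantile normalization and 0.71 with the length trend removed, and that of the membrane proteins from 0.62 to 0.69 with quantile normalization. The median log2 change of hydrolases, -0.05, was -0.156 with quantile normalization and 0.0046 with the length trend removed. The median log2 change of lysosomal proteases, 0.05, was -0.034 with quantile normalization, -0.012 over genes of at least 5 CPM, and -0.038 to 0.16 with 1 library left out. Of genes that did not pass the test, CTSC reached 0.0046 with the length trend removed, and IDS -0.018 and CTSD -0.034 with quantile normalization; CTSD ran from -0.038 (without high glucose replicate 1) to 0.16. CTSC was called lower with quantile normalization (-0.19). No other alternative reversed a class median. The cause of these moves was not tested.

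The replicate block, in which numbers were taken as pairs, gave 28 higher and 11 lower genes, and PSAP lost its call (adjusted p = 0.0728). Deviations of same-numbered libraries had correlations of -0.0404 to 0.0722. Since high glucose replicate 1 stood apart, these correlations cannot show whether same-numbered libraries were processed together, which the labels do not state. In the wider set CTSV, RRAGA and ATP6V1B1 lost their call in some alternatives. Depth limits MITF, TFEB and CTSK most.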
